A study of Mus musculus with 24 samples.

Results

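The interaction of maternal separation and the EC-12 supplement asks which genes of the prefrontal cortex respond to the supplement differently according to rearing. It was taken over all 24 libraries of the series, 6 in each of 4 groups of adult male wild-type mice. Control mice were not separated, and MS mice had gone through maternal separation, in which young pups spend time away from the dam. The Control_EC12 and MS_EC12 groups had the same 2 rearings and received EC-12, a preparation of heat-killed Enterococcus faecalis, for 5 weeks, and neither Control nor MS mice received it. For each gene, the log2 fold change of MS_EC12 over MS and that of Control_EC12 over Control were estimated, and the interaction is the former minus the latter. A positive value means that the supplement response was higher in separated mice. The 2 responses share no library. No source used here gives the hours of separation, the exact age or the animal behind each library. The p-values therefore cover only the variation among these libraries, which may be technical in part.

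As background, early-life stress in rodents is known to alter the later activity of the hypothalamic-pituitary-adrenal axis, whose hormone corticosterone acts on the cortex through the glucocorticoid receptor. Corticosterone follows a daily rhythm, and several clock genes are themselves targets of the glucocorticoid receptor. Killed gut bacteria do not colonise the gut, and their cell-wall components are sensed by innate immune receptors. The series' title states a therapeutic question about social deficits after maternal separation, which the present contrast touches at the level of gene expression.

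Differential response to the supplement was detected for 2 of 18380 genes tested (0.0109%), with an adjusted p under 0.05 in the quasi-likelihood test of edgeR. These were Banp, which encodes a nuclear DNA-binding protein of CpG-island promoters, and Bhlhe40, which encodes a transcriptional repressor of the circadian clock. In both genes the supplement response was higher in separated mice. In both, every MS and every Control_EC12 library lay below every Control library (as in 0.484% and 0.822% of all genes), while MS_EC12 overlapped the other groups. Single responses passed for 0.163% of genes with the supplement in separated mice (0.152% higher), for 0.0218% with the supplement in normally reared mice, for 0.0326% with separation alone and for 0.261% with separation among supplemented mice. No gene passed with a negative interaction. At an unadjusted p under 0.05 there were 882 genes (4.8%), of which 511 (2.78%) were positive and 371 (2.02%) negative. On simulated counts, the same test recovered 21% of 1.5-fold and 65% of 2-fold interactions, so that many differences of such size would not be called.

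Libraries held 26250197 to 39252382 counts. The excitatory cortical markers Slc17a7 (801.5 to 1219 TPM, a level scaled for transcript length) and Camk2a (1091 to 1770 TPM) were high in all libraries. Markers of neighbouring regions differed between libraries. The striatal Drd1 and Drd2 were at 19.9 to 50.3 and 17.9 to 56.2 TPM. Cdhr1 of the olfactory bulb was at 5.97 to 89.7 TPM, and the hypothalamic Oxt at 0 to 73.6 TPM. The part of dissection in the results was not tested. The libraries differed in how strongly expression depended on the GC content of the transcript. This dependence, written as a slope in log2 units per 10 percentage points of GC, was below 0 in 17 libraries. It was above 0 in 7 libraries, of which 0 were Control, 1 MS, 2 Control_EC12 and 4 MS_EC12. These 7 were unevenly spread over the groups. The interaction itself rose with GC content by 0.21 log2 per 10 percentage points over the 15145 genes with a GC value (82.4%). With the slope as a covariate the trend was 0.0015. The slopes were estimated from these same values, so the covariate takes out this trend by construction. Values are therefore also given, for the results that it moves most, from a fit with the slope as a covariate. They are likewise given from a fit on the 17 libraries alone (6 Control, 5 MS, 4 Control_EC12 and 2 MS_EC12). At an unadjusted p under 0.05, 3.08% of all genes were positive and 2.11% negative with the covariate. In the 17 libraries these shares were 3.24% and 3.39%. The part of the slope in each result was not tested beyond these fits.

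Banp (gene 53325, GRCm38 chromosome 8, 121947972 to 122029260) was present at moderate levels. In CPM (counts scaled to library size), it ranged from 25.2 to 30.9 in Control with a median of 27.5. It ranged from 16.7 to 22.7 in MS (median 19.2). It ranged from 15.9 to 19.6 in Control_EC12 (median 18.1). With both separation and supplement, it ranged from 18.3 to 27.4 (median 22.1). Every MS and every Control_EC12 library was below every Control library, whereas MS_EC12 libraries overlapped those of each other group. In normally reared mice given the supplement Banp fell by 0.64 ± 0.09 on the log2 scale (SE, n = 6 libraries per group, adjusted p = 0.0021). In separated mice the same comparison gave 0.20 ± 0.09 (adjusted p = 0.144). The interaction was 0.84 ± 0.13 (adjusted p = 0.0153). Banp passed in each of the 24 fits that left out 1 library, with the adjusted p at most 0.0499. The call was lost with upper-quartile scaling (adjusted p = 0.0524), without the 2 libraries of highest Ttr (adjusted p = 0.0507) and in limma fits to log2 of TPM plus 1 (0.70 ± 0.18, adjusted p = 0.703) or plus 0.1 (0.75 ± 0.19, adjusted p = 0.844). It passed with the GC slope as a covariate (0.78 ± 0.12, adjusted p = 0.0057), and in the 17 libraries alone the value was 0.63 ± 0.12 (adjusted p = 0.182).

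BANP is known to bind a palindrome centred on CGCG, the BANP element. It is in 134 of 27025 mouse promoters (0.496%), searched on both strands in windows from 250 bases before to 50 bases after the RefSeq start. Of these genes, 119 were measured. At an unadjusted p under 0.05, 2 (1.68%) had a positive and 2 (1.68%) a negative interaction, against 2.86% and 2.05% of all 13440 measured genes with a promoter entry. Their median interaction was −0.11, against −0.02 for the latter. A match is a description of the letters only, and binding was not measured here.

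Bhlhe40 (gene 20893, chromosome 6, 108660629 to 108666925) represses transcription from E-box elements and is induced by the CLOCK and BMAL1 activators. Its level was 124.5 to 152.8 CPM in Control (median 136.0). It was 74.5 to 95.6 CPM in MS (median 78.8). It was 82.5 to 119.1 CPM in Control_EC12 (median 94.4) and 75.2 to 130.2 CPM in MS_EC12 (median 111.6). As for Banp, every MS and every Control_EC12 library was below every Control library, and the MS_EC12 libraries were the most widely spread of the 4 groups. Without the supplement, Bhlhe40 fell by 0.76 ± 0.11 on the log2 scale with separation (adjusted p = 0.0043). With the supplement, the same rearing difference was 0.14 ± 0.11 (adjusted p = 0.459). Read the other way, the supplement response was −0.50 ± 0.11 in normally reared mice (adjusted p = 0.074) and 0.39 ± 0.11 in separated mice (adjusted p = 0.0774). The interaction was 0.89 ± 0.15 (adjusted p = 0.0379).

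The call of Bhlhe40 was close to the threshold. It was kept in 7 of the 24 fits that left out 1 library, namely those without Control replicate 1 or 2, MS replicate 3, Control_EC12 replicate 3 or 5, or MS_EC12 replicate 1 or 2. It was lost in the other 17, with the adjusted p reaching 0.128 without MS replicate 4, while the interaction itself stayed between 0.83 and 0.98. The call was also lost with upper-quartile scaling (adjusted p = 0.103), limma-voom (0.0531), no low-count filter (0.0589), log2 of TPM plus 1 (0.288) or plus 0.1 (0.362), and without the 2 libraries of highest Ttr (0.0507). With the GC slope as a covariate it passed (0.76 ± 0.12, adjusted p = 0.0057), and in the 17 libraries the value was 0.61 ± 0.14 (adjusted p = 0.332).

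**Figure D1:**
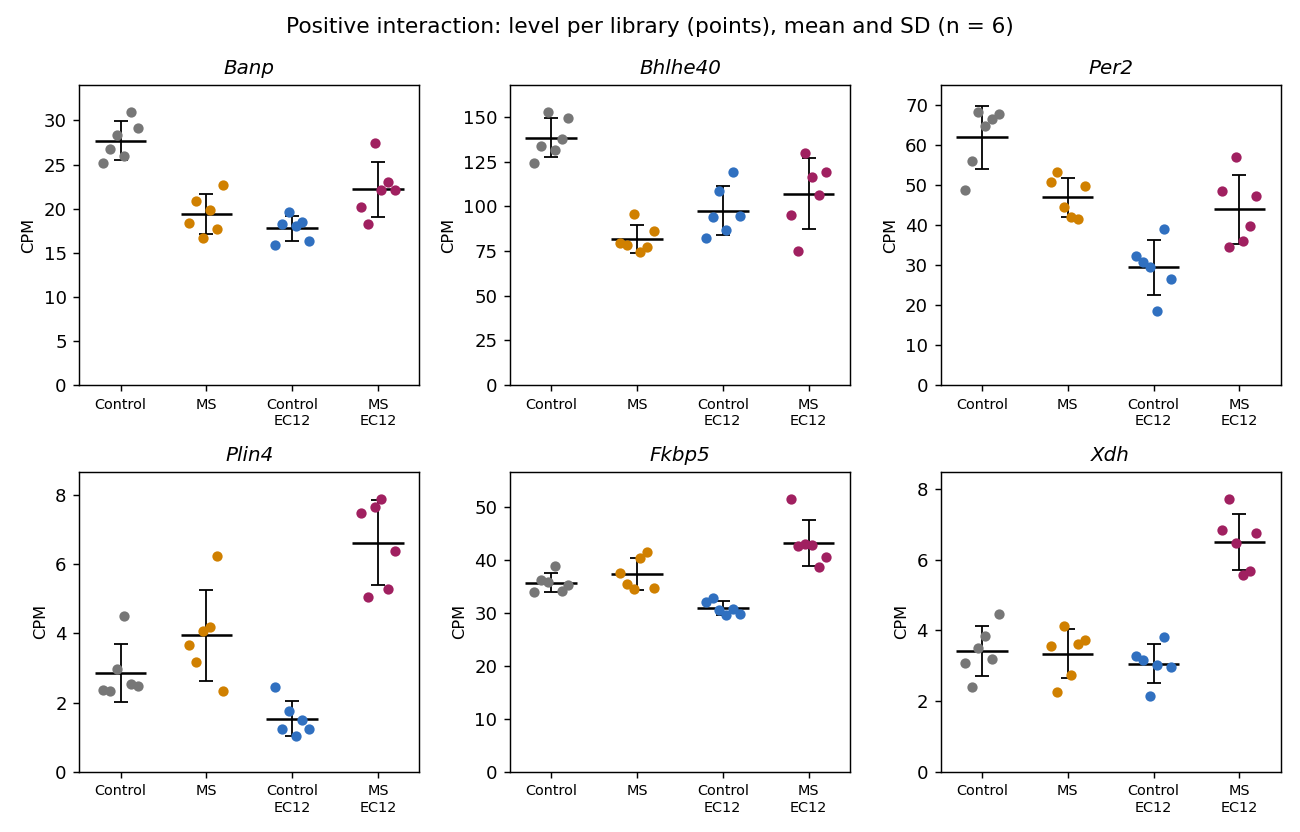
Level in CPM (vertical axis, linear from 0) of 6 genes with a positive interaction in each library of the 4 groups (horizontal axis). Points are libraries, the long bar is the mean and the error bar the SD (n = 6). In Banp and Bhlhe40 all MS and Control_EC12 points lie below all Control points, and in Xdh all MS_EC12 points lie above all others.

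The list of circadian clock genes held 22 genes, all measured. The clock is a feedback loop in which CLOCK and BMAL1 (Arntl) activate their own repressors, the Per and Cry genes, together with Nr1d1, Bhlhe40, Bhlhe41, Ciart and the output genes Dbp, Tef and Hlf. Bhlhe40 passed. At an unadjusted p under 0.05, 9 of 22 (40.9%) had a positive interaction and 0 a negative one, against 2.78% and 2.02% of all genes. The list's median interaction was 0.20, against −0.02 for all genes. The 9 were Bhlhe40, Per2, Nr1d1, Ciart, Cry2, Bhlhe41, Dbp, Cry1 and Per1, which are repressors or outputs of the loop. The activators were not among them, with −0.08 ± 0.12 for Arntl, −0.32 ± 0.35 for Clock and 0.18 ± 0.14 for Npas2. Other members were not among the 9 either, the output Tef included, and a difference between activators and the rest of the list was not tested.

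Per2, a core repressor of the loop (chromosome 1, 91415977 to 91459351), had the largest interaction of the list, which did not pass (0.98 ± 0.20, adjusted p = 0.152). Its level was 48.7 to 68.1 CPM in Control (median 65.6) and 41.4 to 53.1 CPM in MS (median 47.1). It was 18.5 to 39.01 CPM in Control_EC12 (median 30.02) and 34.5 to 57.0 CPM in MS_EC12 (median 43.6). Control_EC12 was thus the low group, and all of its libraries were below all Control libraries (as in 0.822% of all genes). Per2 fell by 1.076 ± 0.14 on the log2 scale with the supplement in normally reared mice (adjusted p = 0.0011). In separated mice the same comparison gave −0.10 ± 0.14 (adjusted p = 0.64).

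Nr1d1, which encodes the repressor REV-ERB alpha and overlaps Thra, had a different low group. It stood at 98.9 to 117.6 CPM in Control (median 104.7) and 67.5 to 90.9 CPM in MS (median 77.2). It stood at 88.9 to 131.3 CPM in Control_EC12 (median 108.8) and 87.4 to 127.3 CPM in MS_EC12 (median 113.9). Every MS library was below every Control library (as in 0.484% of all genes), and both supplemented groups overlapped Control. The interaction was 0.45 ± 0.14 (adjusted p = 0.711), and 0.30 ± 0.08 with the GC slope as a covariate (adjusted p = 0.31).

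Ciart, another repressor of the loop, ranged from 13.2 to 19.2 CPM in Control and from 11.5 to 14.9 CPM in MS. It ranged from 12.1 to 18.6 CPM in Control_EC12 and from 13.9 to 24.4 CPM in MS_EC12, and no pair of groups was separated. Its interaction was 0.56 ± 0.18 (adjusted p = 0.711). The remaining 5 of the 9 had interactions from 0.29 (Cry2) to 0.54 (Dbp), with adjusted p from 0.725 to 0.83.

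Of the 22 clock genes, 16 (72.7%) had an estimate above 0, against 46.8% of all genes, and the lowest was −0.35. The E-box CACGTG, through which CLOCK, BMAL1 and BHLHE40 act, was searched in the promoters. Entries were found for 18 of the 22 genes, and Banp, Bhlhe40 and Per2 were not matched. The E-box was in 5 of the 18 (27.8%), namely Bhlhe41, Ciart, Cry1, Per1 and Tef, against 7.24% of all 27025 promoters. Of the 1276 measured genes with this element, 44 (3.45%) had a positive and 20 (1.57%) a negative interaction at an unadjusted p under 0.05. These shares were near the 2.86% and 2.05% of all 13440 measured genes with a promoter entry. The median interaction was 0.003 with the element and −0.02 for all genes with an entry. Among the 18, Ciart held the most matches, 3, and the 250 bases upstream of its start (minus strand, RefSeq, GRCm38, chr3:95882229-95882478) are shown with each E-box in capitals:
Ciart: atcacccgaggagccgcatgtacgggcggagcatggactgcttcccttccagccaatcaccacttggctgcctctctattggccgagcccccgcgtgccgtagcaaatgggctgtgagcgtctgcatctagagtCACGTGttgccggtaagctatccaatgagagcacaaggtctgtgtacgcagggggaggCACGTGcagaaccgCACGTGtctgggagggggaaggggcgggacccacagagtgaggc

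The clock counts were also taken under the fits that allow for GC content. With the slope as a covariate, 9 of 22 clock genes were positive and 1 negative at an unadjusted p under 0.05. The counts were the same with smooth GC offsets per library. In the 17 libraries they were 5 and 1, with a median of 0.08, and Per1 moved from 0.34 ± 0.16 to −0.02 ± 0.12. As these hold 2 MS_EC12 libraries, the slope and the smaller number of libraries cannot be told apart there. No source used here gives the clock hour of tissue collection, and its part in these values was not tested.

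Of 24 genes known to be induced by glucocorticoids, 10 (41.7%) had a positive interaction at an unadjusted p under 0.05 and 0 a negative one. The shares of all genes were 2.78% and 2.02%, and no gene of this list passed after adjustment. The median was 0.27. The 10 were Plin4, Fkbp5, Map3k6, Zbtb16, Slc2a1, Tsc22d3, Cdkn1a, Klf15, Hif3a and Per1, the last of which is also a clock gene. Other classical targets had values near 0, with 0.02 ± 0.28 for Sgk1, −0.01 ± 0.23 for Dusp1 and 0.05 ± 0.13 for Klf9. The receptor genes did not pass either, with −0.12 ± 0.19 for the glucocorticoid receptor Nr3c1 and −0.28 ± 0.14 for the mineralocorticoid receptor Nr3c2.

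Plin4, which encodes a lipid-droplet coat protein and overlaps Hdgfl2 (chromosome 17, 56100587 to 56109948), was a gene of low expression. It ranged from 2.35 to 4.51 CPM in Control (median 2.51) and from 2.33 to 6.24 CPM in MS (median 3.86). It ranged from 1.04 to 2.45 CPM in Control_EC12 (median 1.37) and from 5.05 to 7.88 CPM in MS_EC12 (median 6.94). All MS_EC12 libraries were above all Control and all Control_EC12 libraries (as in 2.57% and 0.288% of all genes). The rearing difference among supplemented mice passed, with Plin4 higher by 2.11 ± 0.23 on the log2 scale in MS_EC12 than in Control_EC12 (adjusted p = 3e-05). Without the supplement the same difference was 0.45 ± 0.22 (adjusted p = 1.0). The interaction, at 1.65 ± 0.31, did not pass (adjusted p = 0.112), although it did without MS replicate 5 (1.83, adjusted p = 0.0243) or Control_EC12 replicate 1 (1.84, adjusted p = 0.0267).

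Fkbp5, a co-chaperone that restrains the glucocorticoid receptor and is itself a target of it (chromosome 17, 28398753 to 28486149), was tightly measured. It ranged from 33.8 to 38.7 CPM in Control (median 35.5) and from 34.4 to 41.5 CPM in MS (median 36.5). It ranged from 29.6 to 32.7 CPM in Control_EC12 (median 30.6) and from 38.6 to 51.4 CPM in MS_EC12 (median 42.6). All Control_EC12 libraries were below all libraries of Control and of MS_EC12 (as in 0.822% and 0.288% of all genes). Fkbp5 was higher by 0.48 ± 0.07 in MS_EC12 than in Control_EC12 (adjusted p = 0.0011). The interaction was 0.41 ± 0.10 (adjusted p = 0.238). It passed with the GC slope as a covariate (0.46 ± 0.08, adjusted p = 0.0345), and in the 17 libraries it was 0.50 ± 0.10 (adjusted p = 0.211).

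In Map3k6, a stress-activated kinase, and Zbtb16, a transcription factor, Control_EC12 was likewise the lowest and MS_EC12 the highest group by median. Map3k6 was at 1.72 to 3.18 CPM in Control_EC12 (median 2.16) and 3.61 to 4.57 CPM in MS_EC12 (median 4.20), with Control (median 2.91) and MS (median 2.89) between. Its interaction was 0.85 ± 0.20 (adjusted p = 0.307). Zbtb16 was at 16.5 to 38.8 CPM in Control_EC12 (median 31.5) and 44.2 to 51.6 CPM in MS_EC12 (median 48.3), and its interaction was 0.78 ± 0.21 (adjusted p = 0.456). In both genes the 2 supplemented groups did not overlap, as in 0.288% of all genes with MS_EC12 higher. With the GC slope as a covariate 10 of the 24 glucocorticoid-induced genes were positive at this level and 1 was negative, and in the 17 libraries the counts were 7 and 2, with a median of 0.10.

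Endoplasmic reticulum chaperones and their regulators fold secreted proteins and are induced together by the unfolded protein response. Of 20 genes in the list, 7 (35.0%) had a positive interaction at an unadjusted p under 0.05 and 0 a negative one. The shares of all genes were 2.78% and 2.02%, and no gene of this list passed. The median was 0.15. The 7 were the disulphide isomerase Pdia4, the transcription factors Xbp1 and Atf4, the chaperone partner Sdf2l1, the secreted proteins Creld2 and Manf, and Herpud1 of the degradation machinery. This count was 9 with the GC slope as a covariate and 5 in the 17 libraries, where the median was 0.13.

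Pdia4 (chromosome 6, 47796141 to 47813512) was at 33.4 to 47.8 CPM in Control (median 43.2) and 38.2 to 46.1 CPM in MS (median 40.8). It was at 25.9 to 34.4 CPM in Control_EC12 (median 29.6) and 34.8 to 49.8 CPM in MS_EC12 (median 40.6). Control_EC12 was the low group, with all of its libraries below all MS_EC12 libraries (as in 0.288% of all genes). The supplement response was −0.48 ± 0.09 in normally reared mice (adjusted p = 0.0669) and −0.01 ± 0.09 in separated mice (adjusted p = 0.95), and the interaction was 0.47 ± 0.13 (adjusted p = 0.529).

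In Sdf2l1 Control_EC12 was again the low group, with medians of 12.1 CPM in Control, 12.9 in MS, 8.12 in Control_EC12 and 13.3 in MS_EC12. Its interaction was 0.87 ± 0.26 (adjusted p = 0.637), and 0.55 ± 0.26 in the 17 libraries. Xbp1, whose spliced form drives the response, had medians of 77.5, 71.1, 57.5 and 78.5 CPM in the same order and an interaction of 0.54 ± 0.16 (adjusted p = 0.599). Creld2 had medians of 12.9, 12.8, 9.90 and 13.2 CPM and an interaction of 0.48 ± 0.15 (adjusted p = 0.725), which was 0.27 ± 0.17 in the 17 libraries. Hspa5 (the chaperone BiP, overlapping Rabepk) differed in arrangement, with medians of 282.4, 290.2, 188.4 and 226.8 CPM. Its supplement responses had the same sign in both rearings, −0.64 ± 0.13 in normally reared mice (adjusted p = 0.0669) and −0.40 ± 0.13 in separated mice (adjusted p = 0.0828), and its interaction was 0.24 ± 0.18 (adjusted p = 0.83). With the GC slope as a covariate the interaction of Hspa5 was 0.39 ± 0.15, at an unadjusted p of 0.0136 (adjusted p = 0.707).

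The endoplasmic reticulum stress element, CCAAT followed after a fixed gap by CCACG and bound by the factors of this response, was searched on both strands. It was in 7 of the 18 chaperone promoters with an entry (38.9%), against 35 of 27025 promoters (0.13%). The 7 genes were Calr, Canx, Creld2, Dnajc3, Hsp90b1, Hspa5 and Pdia6, and of these only Creld2 was among the members with a positive interaction at an unadjusted p under 0.05. The elements are shown in capitals for Creld2 and for Hspa5, one gene with such an interaction in the full set and one that reached this level with the GC slope as a covariate but not in the full set, in the 250 bases upstream of each start (plus strand, RefSeq, GRCm38, chr15:88819396-88819645 and chr2:34771840-34772089). In Creld2 the match is on the opposite strand and therefore reads as its reverse complement:
Creld2: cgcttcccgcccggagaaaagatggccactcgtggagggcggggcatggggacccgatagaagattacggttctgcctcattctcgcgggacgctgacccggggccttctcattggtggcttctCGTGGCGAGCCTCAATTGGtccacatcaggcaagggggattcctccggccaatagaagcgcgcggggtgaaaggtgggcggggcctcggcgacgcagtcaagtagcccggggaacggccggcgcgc
Hspa5: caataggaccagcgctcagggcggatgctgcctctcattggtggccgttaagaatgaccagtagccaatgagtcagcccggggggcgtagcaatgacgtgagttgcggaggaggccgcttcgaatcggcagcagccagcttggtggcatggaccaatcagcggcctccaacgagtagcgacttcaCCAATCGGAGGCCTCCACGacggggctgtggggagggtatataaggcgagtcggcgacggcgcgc

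**Figure D2:**
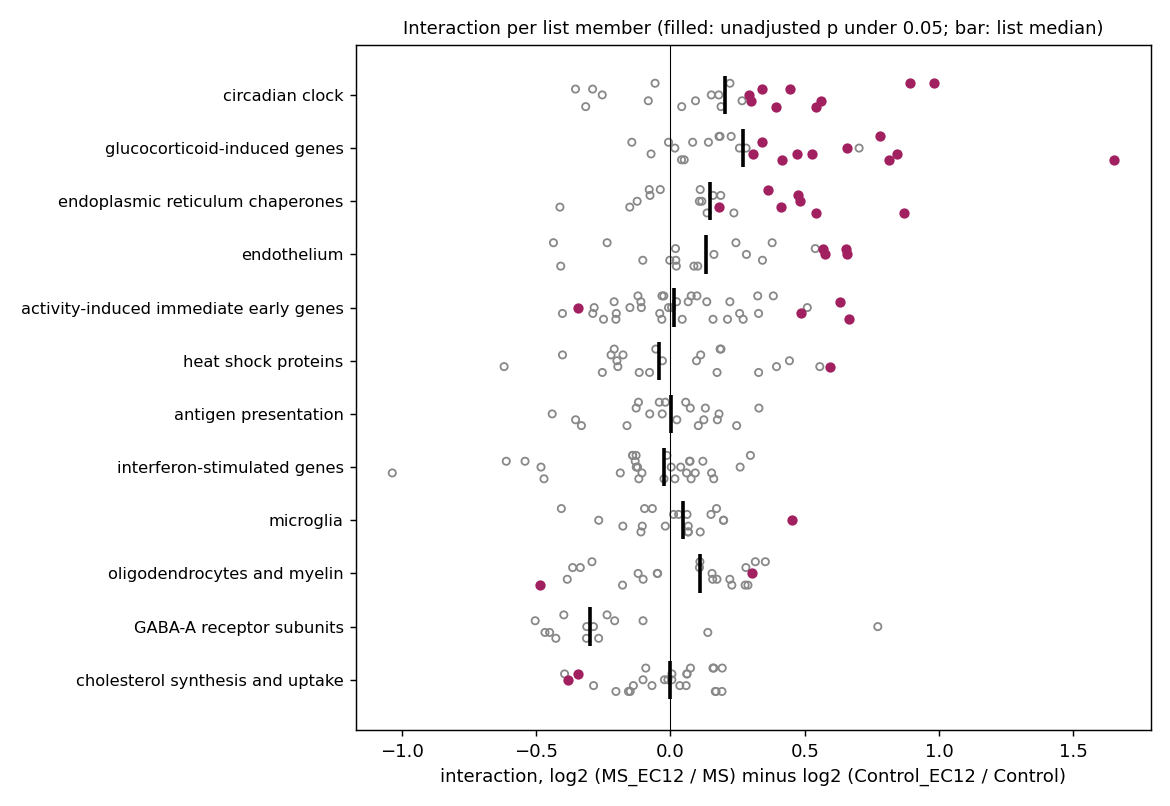
Interaction in log2 units (horizontal axis) of each measured member of 12 gene lists (rows). Filled points have an unadjusted p under 0.05, open points do not, and the vertical bar is the list's median. Filled points of the clock, glucocorticoid-induced and endoplasmic reticulum chaperone lists all lie to the right of 0, and the antigen presentation and interferon lists have none.

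Outside these lists, the genes of smallest p included several in which MS_EC12 alone was high. Xdh (chromosome 17, 73883895 to 73950397) encodes xanthine dehydrogenase, which makes uric acid in the last steps of purine breakdown. It ranged from 2.40 to 4.47 CPM in Control (median 3.34) and from 2.25 to 4.13 CPM in MS (median 3.59). It ranged from 2.14 to 3.82 CPM in Control_EC12 (median 3.09) and from 5.56 to 7.72 CPM in MS_EC12 (median 6.61). Every MS_EC12 library was above every other library of the series, and MS_EC12 lay above MS in this way in 0.593% of all genes. Xdh rose with the supplement in separated mice by 0.96 ± 0.15 in log2 units (adjusted p = 0.0294). The response in normally reared mice was −0.15 ± 0.16 (adjusted p = 0.756). The interaction of 1.11 ± 0.22 did not pass (adjusted p = 0.144), but it passed with the GC slope as a covariate (1.16 ± 0.22, adjusted p = 0.0424) and without Control replicate 2 (1.20, adjusted p = 0.0458). In the 17 libraries it was 1.23 ± 0.26 (adjusted p = 0.211). Xdh stood alone in this respect among the 17 genes of purine breakdown and salvage. Of these, 1 (5.88%) was positive and 0 negative at an unadjusted p under 0.05, against 2.78% and 2.02% of all genes.

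Smim3, a small membrane protein gene, showed the same arrangement. It was at 5.08 to 8.18 CPM in Control, 6.01 to 8.88 CPM in MS and 4.20 to 7.39 CPM in Control_EC12. It was at 9.69 to 16.2 CPM in MS_EC12, above every other library (as in 0.593% of all genes against MS and 0.288% against Control_EC12). It rose by 0.77 ± 0.14 with the supplement in separated mice (adjusted p = 0.036), with −0.21 ± 0.14 in normally reared mice (adjusted p = 0.662) and an interaction of 0.97 ± 0.20 (adjusted p = 0.17). Prr5, which encodes a subunit of the mTORC2 kinase complex, had an interaction of 0.71 ± 0.15 (adjusted p = 0.161). Its MS_EC12 libraries (10.54 to 14.9 CPM) were above all MS (8.05 to 9.71 CPM) and all Control_EC12 libraries (6.56 to 9.09 CPM). These separations were held by 0.593% and 0.288% of all genes. The MS_EC12 libraries were not above all Control libraries (7.23 to 10.8 CPM).

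In other genes Control_EC12 alone was low. Camk1g, a calcium-dependent kinase of neurons, was at 28.1 to 40.4 CPM in Control, 31.9 to 44.0 CPM in MS, 21.3 to 28.1 CPM in Control_EC12 and 34.1 to 54.4 CPM in MS_EC12. Its interaction was 0.77 ± 0.17 (adjusted p = 0.176), and it passed with the GC slope as a covariate (0.59 ± 0.11, adjusted p = 0.0363). Smad3, a signal transducer of the TGF-beta receptor, had medians of 82.2 CPM in Control, 78.5 in MS, 60.6 in Control_EC12 and 85.8 in MS_EC12. All of its Control_EC12 libraries were below all Control libraries (as in 0.822% of all genes). Its interaction was 0.59 ± 0.13 (adjusted p = 0.176), against 0.38 ± 0.11 in the 17 libraries.

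In another arrangement MS alone was low. Pdgfb, a growth factor that endothelial cells use to recruit pericytes, was at 24.5 to 29.4 CPM in Control, 16.1 to 22.2 CPM in MS, 22.1 to 27.5 CPM in Control_EC12 and 19.9 to 34.3 CPM in MS_EC12. It fell by 0.58 ± 0.11 on the log2 scale with separation in the absence of the supplement (adjusted p = 0.0471). It rose by 0.54 ± 0.11 with the supplement in separated mice (adjusted p = 0.036), and the interaction was 0.71 ± 0.15 (adjusted p = 0.176). In the 17 libraries it was 0.45 ± 0.14, and it passed without MS_EC12 replicate 2 (adjusted p = 0.0454). Foxo6, a forkhead factor of the forebrain, fell by 0.75 ± 0.13 with separation (adjusted p = 0.0251). Its interaction was 0.63 ± 0.18 (adjusted p = 0.551).

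In Trib2 and Serinc2 both MS and Control_EC12 were low by median. Trib2 had medians of 50.7 CPM in Control, 40.5 in MS, 36.8 in Control_EC12 and 44.0 in MS_EC12, and Serinc2 had 6.30, 3.83, 4.13 and 5.18 CPM. Trib2, a pseudokinase, and Serinc2, a membrane protein, had interactions of 0.55 ± 0.11 (adjusted p = 0.17) and 1.07 ± 0.24 (adjusted p = 0.176) without passing.

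**Figure D3:**
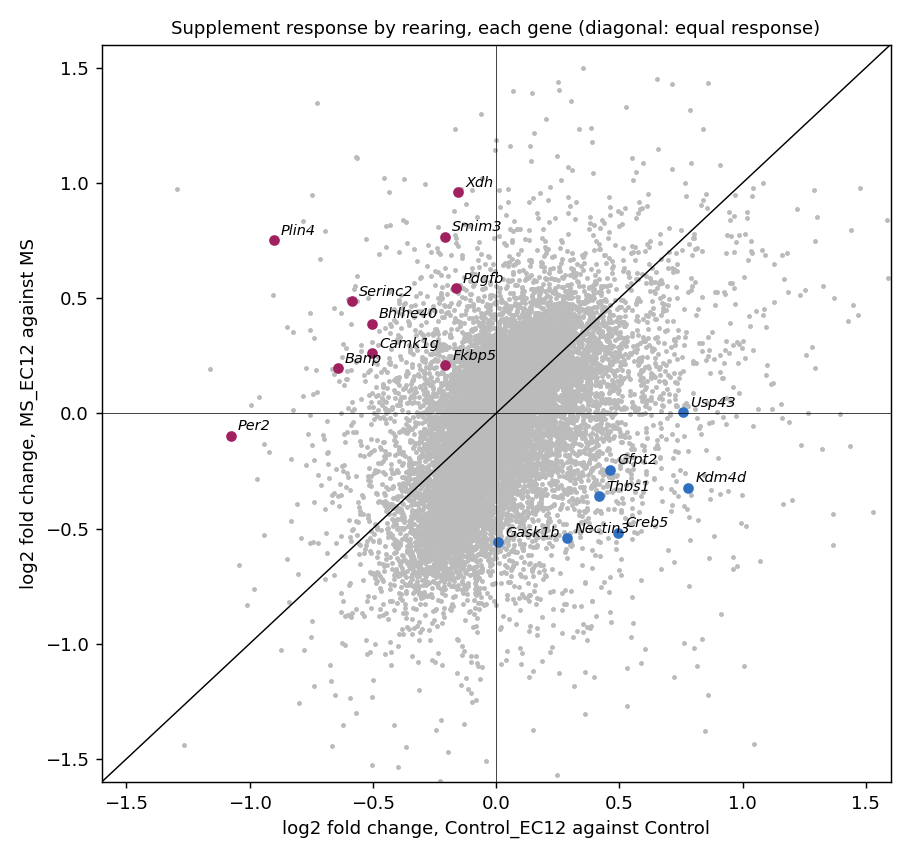
Supplement response of each gene as log2 fold change in normally reared mice (horizontal axis) and in separated mice (vertical axis), with the line of equal response. Purple and blue points are named genes of positive and negative interaction, and 35 genes beyond 1.6 on either axis are not drawn. Named purple genes lie above the line and blue genes below it, mostly in the quadrants where the 2 responses have opposite signs.

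No gene passed with a negative interaction, and the following are the ones of smallest p. Usp43, a deubiquitinase, was at 2.22 to 3.08 CPM in Control (median 2.75) and 3.05 to 4.16 CPM in MS (median 3.76). It was at 3.38 to 5.59 CPM in Control_EC12 (median 4.59) and 3.16 to 3.99 CPM in MS_EC12 (median 3.82). All supplemented libraries of either rearing were above all Control libraries, as in 0.511% of all genes for Control_EC12 and 2.57% for MS_EC12. Usp43 rose by 0.76 ± 0.12 in log2 units with the supplement in normally reared mice (adjusted p = 0.0057). The response in separated mice was 0.01 ± 0.12 (adjusted p = 0.982). The interaction was −0.75 ± 0.17 (adjusted p = 0.176).

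Creb5, a transcription factor of the CREB and ATF family, was at 1.46 to 3.18 CPM in Control (median 2.98) and 3.84 to 5.28 CPM in MS (median 4.70). It was at 2.92 to 5.17 CPM in Control_EC12 (median 3.52) and 2.70 to 3.73 CPM in MS_EC12 (median 3.31). The MS libraries were above all Control and all MS_EC12 libraries, as in 0.234% and 0.261% of all genes. The interaction was −1.01 ± 0.23 (adjusted p = 0.238).

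Nectin3, an adhesion molecule of synaptic junctions (chromosome 16, 46387665 to 46498535), was more sensitive to the treatment of GC content. It was at 28.2 to 31.0 CPM in Control (median 29.9) and 30.2 to 41.9 CPM in MS (median 38.6). It was at 24.7 to 43.4 CPM in Control_EC12 (median 39.8) and 17.0 to 33.5 CPM in MS_EC12 (median 25.7). The groups overlapped. Its interaction was −0.83 ± 0.21 (adjusted p = 0.359) in the full set. It passed with the GC slope as a covariate (−0.60 ± 0.09, adjusted p = 0.0057) and in the 17 libraries (−0.69 ± 0.09, adjusted p = 0.0082), where MS_EC12 holds 2 libraries.

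Gfpt2, which encodes the entry enzyme of the hexosamine pathway, had an interaction of −0.71 ± 0.17 (adjusted p = 0.351). All of its Control_EC12 libraries (6.97 to 8.95 CPM) were above all Control libraries (4.54 to 6.53 CPM), as in 0.511% of all genes. Gask1b, which encodes a Golgi-associated kinase-like protein, fell by 0.56 ± 0.11 with the supplement in separated mice (adjusted p = 0.036), as did 1 other gene, the predicted model Gm32810, whose interaction was −0.73. The MS_EC12 libraries of Gask1b (5.51 to 9.69 CPM) were below all MS libraries (10.2 to 12.7 CPM), as in 0.261% of all genes. Its interaction was −0.57 ± 0.15 (adjusted p = 0.456), against −0.37 ± 0.14 in the 17 libraries. Lrch4 had an interaction of −1.94 ± 0.51 (adjusted p = 0.456), and its libraries were widely spread, from 0.993 to 7.87 CPM in MS. Mlip, Prr16, Kdm4d, Gpr21 and Thbs1 had interactions from −0.44 to −1.10, with adjusted p from 0.382 to 0.56. Gpr21 lies within Rabgap1, so that its reads and those of Rabgap1 may not be separable.

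**Figure D4:**
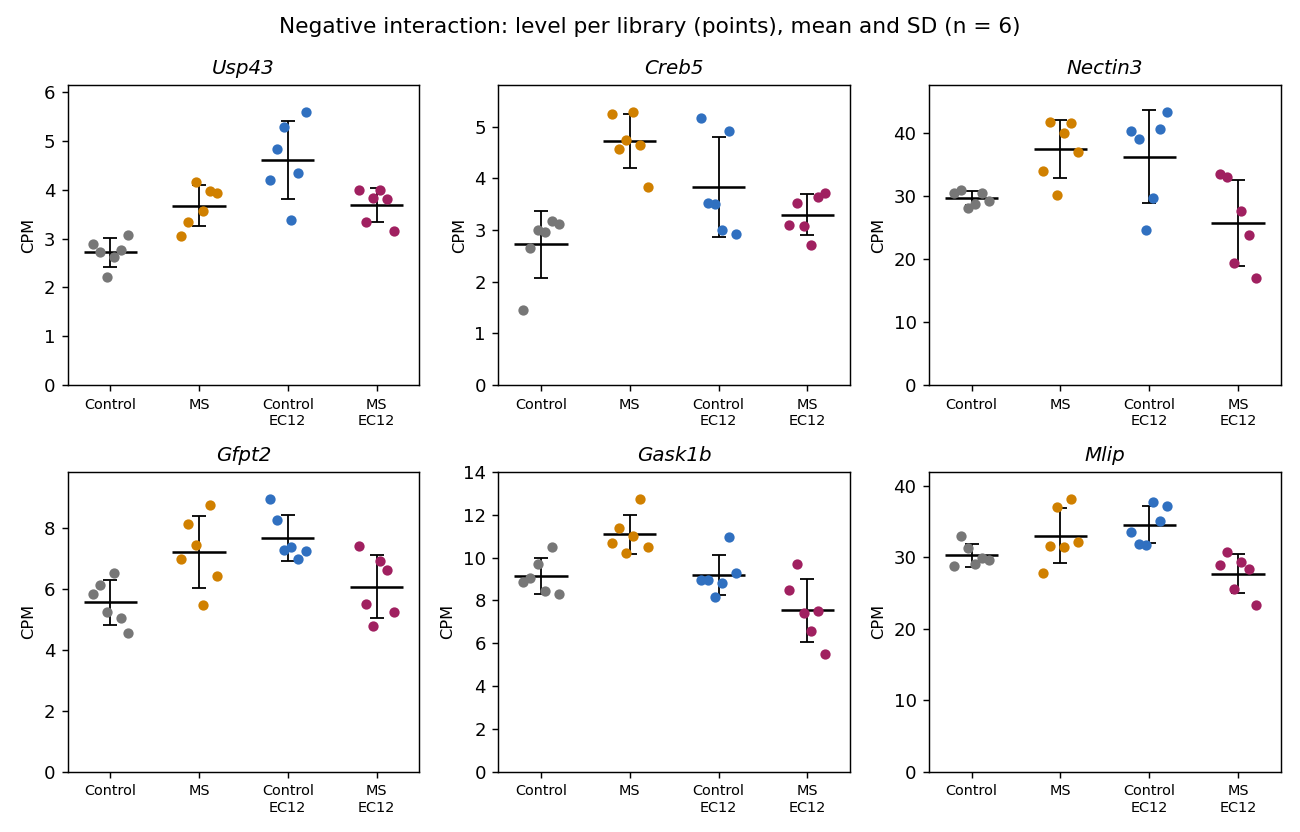
Level in CPM (vertical axis, linear from 0) of 6 genes with a negative interaction in each library of the 4 groups (horizontal axis). Points are libraries, the long bar is the mean and the error bar the SD (n = 6). None of these genes passed. Control is the low group in Usp43 and Gfpt2, and all MS points lie above all MS_EC12 points in Creb5 and Gask1b.

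None of 26 genes of cholesterol synthesis and uptake passed, and the list's median was −0.0023. Insig1, which retains the sterol sensor in the endoplasmic reticulum, had an interaction of −0.34 ± 0.10 (adjusted p = 0.551). In Insig1, all MS_EC12 libraries (48.1 to 61.4 CPM) were below all Control_EC12 libraries (70.2 to 79.2 CPM), as in 0.18% of all genes, with Control at 61.9 to 73.7 CPM and MS at 57.9 to 67.3 CPM. The log2 fold change of Insig1 in MS_EC12 over Control_EC12 was −0.39 ± 0.07 (adjusted p = 0.0104).

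In the immune lists no difference by rearing was detectable. None of 20 antigen presentation genes, 29 interferon-stimulated genes, 17 complement genes or 30 genes of bacterial sensing and innate cytokine signalling passed, and none reached an unadjusted p under 0.05 in either direction. The medians of these lists lay between −0.03 and 0.04. In antigen presentation, 1 gene (5%) was negative at this level with the GC slope as a covariate, against 2.11% of all genes. In the 17 libraries 2 (10%) were negative, against 3.39% of all genes, and the list's median was −0.18. In bacterial sensing, 2 genes (6.67%) were positive with the covariate, against 3.08% of all genes. In complement, 1 gene was positive and 1 negative in the 17 libraries (5.88% each), against 3.24% and 3.39% of all genes. With smooth GC offsets, 1 gene was negative in each of the antigen presentation and interferon lists (5% and 3.45%), against 2.41% of all genes. For antigen presentation, the median supplement response was 0.38 in separated and 0.32 in normally reared mice. Il1b, an inflammatory cytokine, had an interaction of −0.11 ± 0.48. In the microglial list 1 of 20 genes (5%), Tmem119, was positive at an unadjusted p under 0.05, against 2.78% of all genes. Its interaction was 0.45 ± 0.18 (adjusted p = 0.83), with 0.25 ± 0.09 when the GC slope was a covariate.

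Of 36 activity-induced immediate early genes, 3 (8.33%; Ier5, Dusp4 and Egr1) were positive and 1 (2.78%; Rasgef1b) negative at an unadjusted p under 0.05, against 2.78% and 2.02% of all genes, with a median of 0.01. The counts were 5 and 3 with the GC slope as a covariate, 6 and 2 with smooth GC offsets, and 2 and 5 in the 17 libraries, where the median was −0.15. Between all libraries and the 17, Egr1 moved from 0.49 to 0.12 and Dusp4 from 0.63 to 0.29. Fos was at −0.25 ± 0.21 and Arc at −0.03 ± 0.43. In the 17 libraries Jun passed with −0.68 ± 0.11 (adjusted p = 0.0484), a gene singled out after its values were seen, and in all libraries it was at −0.21 ± 0.16 (adjusted p = 0.83). The candidates for social behaviour and stress did not pass either, with 0.02 ± 0.16 for the oxytocin receptor Oxtr, 0.06 ± 0.47 for the vasopressin receptor Avpr1a, −0.12 ± 0.22 for Bdnf and 0.13 ± 0.15 for the CRH receptor Crhr1. The 14 GABA-A receptor subunits had a median of −0.30 with none past an unadjusted p under 0.05, and their median was −0.05 with the GC slope as a covariate, their transcripts having a median GC content of 42.6%.

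Of 20 endothelial genes, 4 (20%) were positive at an unadjusted p under 0.05 and 0 negative, against 2.78% and 2.02% of all genes, and none passed. The 4 were the lipid transporter Mfsd2a (0.65 ± 0.18), the glucose transporter Slc2a1 (0.66 ± 0.21), and Ly6c1 (0.58 ± 0.20) and Ly6a (0.57 ± 0.21), surface proteins of mouse endothelium. The defining markers Cldn5 and Pecam1 were at 0.02 ± 0.25 and 0.09 ± 0.17. The count was 6 with the GC slope as a covariate, 5 with smooth GC offsets and 0 in the 17 libraries, where Mfsd2a was at 0.24 ± 0.16 and Slc2a1 at 0.27 ± 0.21. The mean log2 CPM of the whole list was 4.13 to 4.67 in Control, 4.13 to 4.40 in MS, 4.05 to 4.50 in Control_EC12 and 4.24 to 4.47 in MS_EC12. Of 14 genes in the haemoglobin list, 3 (Alas2, Hbb-bt and Hbb-bs) were positive at an unadjusted p under 0.05, with adjusted p of 0.83 each, a share of 21.4% against 2.78% of all genes. That count was 5 in the 17 libraries. In bulk tissue, fewer cells of a type and less RNA per cell cannot be told apart.

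Choroid plexus genes had the highest median of the 40 lists, 0.67 over 12 measured genes, with none past an unadjusted p under 0.05. Their mean log2 CPM ran from 0.55 to 1.16 in Control, 0.29 to 1.72 in MS, 0.54 to 1.34 in Control_EC12 and 0.62 to 3.54 in MS_EC12. Ttr, their defining marker, reached 1104 TPM in MS_EC12 replicate 6 and 106 TPM in MS replicate 3, against at most 9.36 TPM in Control_EC12 and 1.74 TPM in Control. Without MS_EC12 replicate 6 the median was −0.08. Without these 2 libraries no gene passed the interaction, with an adjusted p of 0.0507 for both Banp (0.80 ± 0.13) and Bhlhe40 (0.91 ± 0.16), and 947 genes had an unadjusted p under 0.05. The part of choroid plexus tissue in other results was not tested.

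Across all genes the 2 supplement responses were alike in part. Their correlation across the 18380 genes was r = 0.42 (Spearman 0.52), given as a description because genes are not independent and share the GC slope of their libraries. It was 0.21 in the 17 libraries and 0.33 with the slope as a covariate. Of the 511 genes with a positive interaction at an unadjusted p under 0.05, 416 (81.4%) had a response below 0 in normally reared and above 0 in separated mice, an arrangement of signs held by 13.8% of all genes. Of the 371 with a negative one, 300 (80.9%) had the reverse arrangement, held by 14% of all genes. Selection on the interaction favours opposite signs, and these are signs of estimates, not of calls. Of the 28 genes that rose with the supplement in separated mice, 24 (85.7%) had an estimate above 0 in normally reared mice too. Over all genes, 7007 had both estimates above 0 and 2539 had only that in separated mice above 0.

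**Figure D5:**
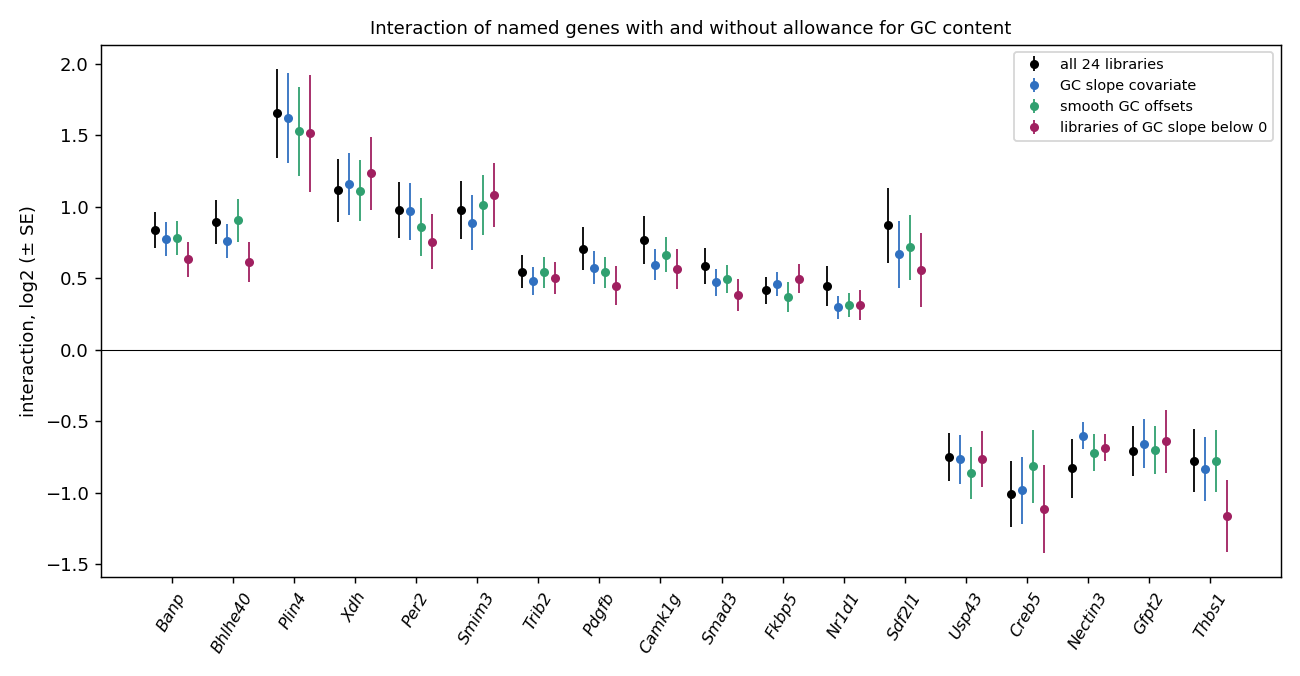
Interaction in log2 units with its SE (vertical axis) of 18 named genes (horizontal axis) under 4 fits. These use all 24 libraries, the GC slope as a covariate, smooth GC offsets per library, or only the 17 libraries with a slope below 0. Most genes shown are among those of smallest p, for which a change of sign is unlikely. Every gene shown keeps the sign of its interaction in all 4 fits, whereas some named genes not drawn, such as Per1, do not. The calls of Banp and Bhlhe40 are lost in the fit on 17 libraries.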

How the data were processed

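RNA from the prefrontal cortex was extracted with ISOGEN II and made into libraries with a TruSeq stranded mRNA kit, per the labels' protocols. Per the submitters' processing notes, the build was mm10 and the tools included HISAT2 2.1.0, Trimmomatic 0.38, DESeq2, StringTie 2.1.3b and FastQC 0.11.7. No source used here states the counting rule. The authors deposited raw read counts per gene for 45777 genes, used for all main results, and TPM values of their own, used for marker levels and an alternative. Groups came from the labels. In R 4.3.3, edgeR 4.0.16 (quasi-likelihood F test) was fitted to all 24 libraries with TMM scaling, 1 coefficient per group and filterByExpr (minimum count 10, minimum total 15), which left 18380 genes. P-values were 2-sided, with Benjamini-Hochberg adjustment across every tested gene. CPM values are TMM-scaled. Counts of low genes are imprecise at 26250197 to 39252382 counts per library.

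The members, the 40 gene lists and the tests were chosen with earlier results of these data known. Named genes were the 12 of smallest p in each direction, predicted models left out, up to 4 members per list by smallest p, the 6 of smallest p in each supplement response, and 18 candidates. Whole lists are given by counts and medians, with no test. The fit was tested on 18380 genes of simulated counts, of which 200 were changed, with 5 false calls. Coordinates and promoters are from RefSeq (GRCm38, the assembly behind mm10), and transcript GC is that of the reference annotation. Alternatives covered scaling, other tools, filters, TPM, GC, the replicate block, each library left out, robust dispersion and the 2 libraries of highest Ttr, the last 2 chosen after seeing the data. Results for some named genes are not reported here.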

Additional observations from a re-analysis of the deposited data

Results flagged for a closer look

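The interaction itself marks Banp (0.84) and Bhlhe40 (0.89) as genes whose supplement response differed between rearings by a test of that difference. Single libraries that stood apart from the other 5 of their group, by the share of the group's range that separates them from the nearest library (above the 95% critical value of Dixon), were found in 5 of 104 groups of values tested, and chance alone gives about 5%. Plin4 was at 4.51 CPM in Control replicate 4, with the next Control library at 2.97 CPM. Fkbp5 was at 51.4 CPM in MS_EC12 replicate 1, with the next at 43.0 CPM. Pdia4 was at 46.1 CPM in MS replicate 5, with the next at 41.1 CPM. Creb5 was at 1.46 CPM in Control replicate 1, with the next at 2.65 CPM. The GC slope was 0.27 log2 per 10 percentage points in MS replicate 3, with the next MS library at −0.16.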

How the results depend on the processing

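The count of 2 genes passing the interaction was 2 with RLE scaling, a stricter low-count filter, robust dispersion and smooth GC offsets. It was 0 with upper-quartile scaling, log2 of TPM plus 1 and log2 of TPM plus 0.1 (806, 809 and 791 genes at an unadjusted p under 0.05), 0 without the 2 libraries of highest Ttr, 1 with limma-voom and without the low-count filter, 19 with DESeq2 (17 positive, 2 negative), 7 with the GC slope as a covariate and 7321 (3292 positive, 4029 negative) with sample quality weights in limma-voom. The 17 libraries also gave 2, neither of them Banp or Bhlhe40. Leaving out each library in turn gave 1 to 4. The cause of these differences was not tested. The labels do not say whether replicate numbers pair libraries. The deviations of same-numbered libraries correlated at 0.0887 on average (−0.30 to 0.57 over 36 pairs). Other pairs of libraries from different groups averaged −0.018 (−0.60 to 0.61 over 180 pairs). Of 24 libraries, 5 correlated best with their own number. With the replicate block the count of genes passing was 9, with 1420 genes at an unadjusted p under 0.05. It was 31 with the block and the GC slope covariate. Any relation by number was not tested beyond these values.

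Some interactions changed sign under some settings, none of them called. Per1, counted as positive in the clock and glucocorticoid-induced lists, was among them. In the 17 libraries those that changed were Per1 (−0.022, against 0.34 in all libraries), Arc (0.32), Oxtr (−0.060), Avpr1a (−0.11) and Bdnf (0.035). With the GC slope covariate they were Avpr1a (−0.089), Bdnf (0.11) and Nr3c1 (0.096), with smooth GC offsets Oxtr (−0.048), Bdnf (0.12), Nr3c1 (0.11) and Crhr1 (−0.0042), and with the replicate block Arc (0.13). With block and covariate they were Arc (0.0039), Avpr1a (−0.068), Bdnf (0.13) and Nr3c1 (0.12). Arc was at 0.20 with limma-voom, 0.29 with quality weights and 0.22 without the libraries of highest Ttr. With log2 of TPM plus 1 Arc was at 0.14, Oxtr at −0.034 and Il1b at 0.027, and with log2 of TPM plus 0.1 Arc was at 0.14 and Oxtr at −0.045. Leaving out 1 library gave −0.20 to 0.16 for Arc, −0.048 to 0.085 for Oxtr, −0.14 to 0.25 for Avpr1a and −0.41 to 0.083 for Il1b.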
